A study of Mus musculus with 4 samples.

Results

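The type I interferon response genes are 39 genes that cells switch on after they sense interferon-alpha or interferon-beta. They were taken by symbol from the feature table, where all 39 of them were present among 31053 genes, and their UMIs (unique molecular identifiers, each standing for 1 captured transcript) were summed within classes of cells defined by marker genes. The libraries came from pre-diabetic female mice. All of them carried floxed alleles of Ocab (Pou2af1 in the feature table, a lymphocyte coactivator that partners octamer-binding proteins): the control was Ocab fl/fl, and the CD4-Cre group was Ocab fl/fl with CD4-Cre, a Cre recombinase driven by the Cd4 promoter, which is on in developing T cells of both the CD4 and the CD8 lineage. Leukocytes bearing CD45 were flow-sorted from the pancreas at 12 weeks of age, with 4 mice pooled per library, and T cells bearing CD3 were taken with magnetic beads from the pancreatic lymph node at 8 weeks, with 5 mice pooled per library. Each of the 4 groups was a single library, so every difference below compares 2 libraries and has no replicate check, and every interval is a 95% interval for counting error only.

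Interferons of type I bind the receptor Ifnar1 and Ifnar2 and, through the kinases Jak1 and Tyk2, lead to the assembly of a factor containing Stat2 and Irf9 that binds interferon-stimulated response elements in promoters. The genes it turns on make proteins that block viral RNA, modify other proteins with the ubiquitin-like ISG15, or amplify and damp the response itself. In autoimmune diabetes of mice and humans an interferon signature is known as an early feature of islets and circulating leukocytes. For the text the genes were divided into 24 core genes, known as genes that interferon induces, and 15 others. The core genes were Isg15, the Ifit, Oas and Oasl genes, Irf7, Mx1, Usp18, Rsad2, Ifi44, Cmpk2, Rtp4, Zbp1, Xaf1, Ifi204, Ifi205, Ifi213, Phf11b and Ifi27l2a. The 15 others included Ly6a, Ifi47, Slfn1, Bst2 and Ifi203. No level of expression was used to form either list. The core genes were chosen from general knowledge but with earlier results of these data known, so their sum is not independent support.

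The binding element can be written as a pair of GAAA blocks with any 2 bases between them, GAAANNGAAA, searched on both strands. RefSeq promoter windows of build GRCm38.p6, running from 250 bases before to 50 bases after the gene start (300 bases in all), were matched to 29 of the 39 genes. The element was present for 16 of these 29 genes (55.2%), beside 3.99% of all 27025 genes in that table. By windows, it was in 17 of 35 windows of the interferon genes and in 3.44% of all 32851 windows. Upstream stretches are shown for 4 genes named in the lymph node comparison. They are the 3 highest ratios in CD4-only T cells and Isg15, the most abundant gene of the modifier system. They were chosen after their values were seen, and each element is in capitals. Oasl2, which was also among the highest in CD8-only T cells, had no element in its window. Elements that overlap run together, and TTTC blocks are the element on the opposite strand.
Isg15, chr4:156200863-156200908, minus strand: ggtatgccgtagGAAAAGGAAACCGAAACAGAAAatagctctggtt
Ifit1, chr19:34640773-34640825, plus strand: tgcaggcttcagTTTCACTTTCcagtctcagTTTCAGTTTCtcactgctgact
Ifit3, chr19:34583361-34583428, plus strand: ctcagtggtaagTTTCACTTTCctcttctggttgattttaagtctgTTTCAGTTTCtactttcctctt
Ifit3b, chr19:34607757-34607824, plus strand: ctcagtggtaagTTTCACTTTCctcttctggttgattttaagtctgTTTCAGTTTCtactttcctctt
Isg15 held 3 overlapping elements, starting 78, 72 and 66 bases before its start. Ifit1 held 2, starting 104 and 85 bases before, Ifit3 2, at 156 and 122, and Ifit3b 2, at 188 and 154. The shown stretches of Ifit3 and Ifit3b were letter for letter the same, and over the 218 upstream bases that could be laid side by side 86.2% were identical. Their transcripts are also alike: 61.8% of the 31-base words of Ifit3 also occurred in Ifit3b, so the counts of the 2 genes may be affected. A match to the element is a description of the letters and not a binding site.

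Copies matter for other genes of the list too. More than 10% of the 31-base words of 13 genes were shared with another gene in GENCODE M21 transcripts. The share was above 50% for Oas1a (68.8%, mostly with Oas1g), Phf11b (62.9%), Ifit3 and Ifit3b, and it was 34.0% for Ifi204 and 31.9% for Ly6a. Values of these genes are less certain for this reason. The shares cover whole transcripts, while UMIs are counted at the 5′ end, so they do not measure how many UMIs are affected.

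After filtering, 4019 and 6260 barcodes remained in the pancreas control and CD4-Cre libraries and 2847 and 5328 in the lymph node ones, with medians of 3615 to 4605 UMIs. Libraries shared between 21 and 70 barcodes, at most 1.02% of a library. Lymph node CD4-Cre stood apart in having 9.39% of its listed barcodes above 10% mitochondrial UMIs, beside 1.01% in its control. With a stricter limit of 5% mitochondrial UMIs and at least 1000 genes per barcode, the log2 ratios of the summed interferon genes were 0.22 and 0.13 in its CD4-only and CD8-only T cells, beside 0.21 and 0.13. CD4-only T barcodes (Cd4 and no Cd8a or Cd8b1 UMI) numbered 879 and 2019 in pancreas control and CD4-Cre, and 1263 and 2664 in the lymph node. CD8-only T barcodes (the reverse) numbered 420 and 626 in the pancreas and 692 and 1425 in the lymph node. In every one of these classes all 4 T cell markers were detected in at least 10% of barcodes. The targeted gene Pou2af1 gave 26 UMIs (4.93 CPM, meaning per 1000000 UMIs) in control and 4 UMIs (0.379 CPM) in CD4-Cre gated T cells of the pancreas, and 52 (5.12 CPM) and 0 in those of the lymph node.

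The summed level of the 39 genes differed between cell classes, with B cells furthest from the others. Among pancreas control classes it was lowest in B cells, at 1164 CPM (UMIs of the genes per 1000000 UMIs of the class, with an interval of 1129 to 1201), and highest in CD8-only T cells, at 3960 (3872 to 4050). Natural killer (NK) cells, at 2770 (2654 to 2891), and macrophages, at 2824 (2743 to 2907), did not differ beyond their counting intervals, and CD4-only T cells followed at 3041 (2982 to 3101) and dendritic cells at 3257 (3147 to 3369). Each transcript is counted once, at its 5′ end, so these levels are counts of molecules and were not divided by gene length.

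**Figure D1:**
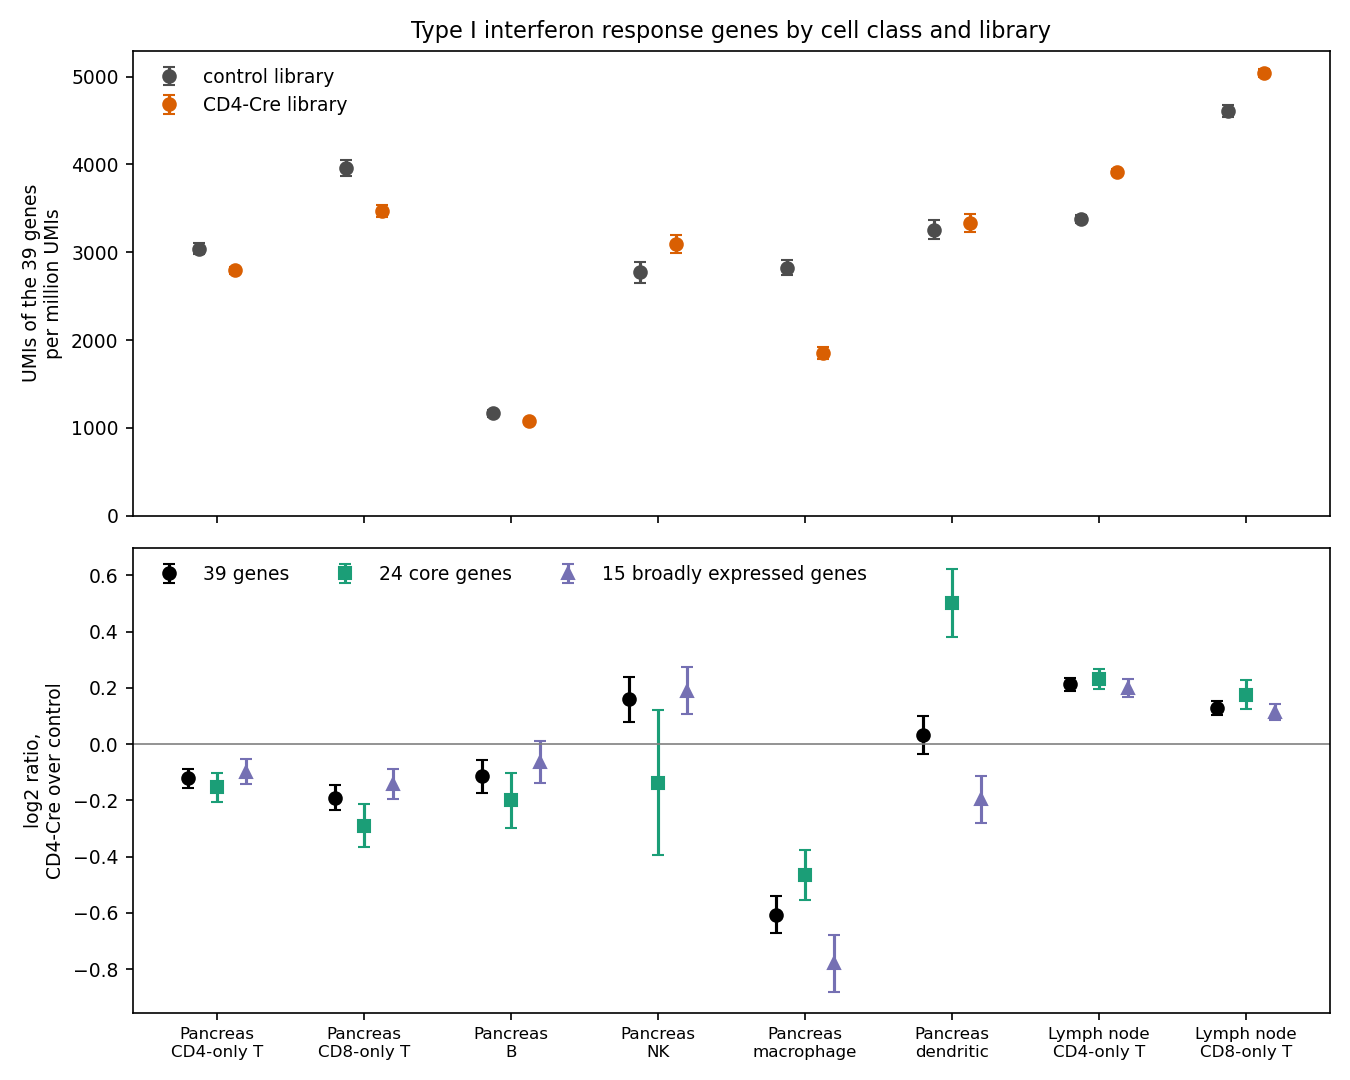
Upper panel: level of the 39 genes in CPM (y axis) in each cell class (x axis) of the control (grey) and CD4-Cre (orange) library, with 95% Poisson intervals. Lower panel: log2 ratio of CD4-Cre over control for the 39 genes, the 24 core genes and the 15 other genes, with 95% counting intervals. The legend names the 15 other genes broadly expressed, though no level was used to choose them. The sum lies below 0 in both pancreas T cell classes and above 0 in both lymph node T cell classes.

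A few genes make up most of that sum. Ly6a (chr15:74994877-74998031, encoding the surface protein Sca-1) held 33.5% of the UMIs of the list in the T cell classes. Ifi27l2a (chr12:103442167-103443680, encoding a small mitochondrial protein) held 21.3%, and Ifi47 (chr11:49076587-49096974, encoding a GTPase also induced by interferon-gamma) 8.82%. The next in order were Slfn1 (4.91%), a Schlafen gene tied to T cell quiescence, Bst2 (3.54%), which tethers budding virions, Ifi203 (3.30%), of the DNA-binding IFI200 family, Isg15 (2.52%) and Zbp1 (2.12%), a sensor of Z-form nucleic acids. The sum therefore follows Ly6a and Ifi27l2a. Ifi27l2a is itself one of the core genes and held 69.0%, 64.6%, 62.1% and 47.2% of the core UMIs in control CD4-only and CD8-only T cells of the pancreas and then of the lymph node, so it was abundant in control cells and weighs heavily in the core sum. Without Ifi27l2a, a setting chosen after seeing the data, the other 23 core genes had log2 ratios of CD4-Cre to control of -0.11 (-0.20 to -0.02) and -0.22 (-0.35 to -0.09) in the pancreas classes and 0.30 (0.24 to 0.35) and 0.22 (0.15 to 0.30) in the lymph node classes, in the same order.

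Each class had its own make-up. Of the 39 genes, 14 had their highest level among pancreas control classes in macrophages and 8 in CD8-only T cells. A further 7 were highest in CD4-only T cells, 7 in dendritic cells, 2 in NK cells and 1 in B cells. The rarest genes rest on single UMIs. The same count over all genes is not given, so whether this spread is particular to the list was not tested. Ifi205, another IFI200 gene, stood at 194 CPM in dendritic cells and had no UMI in CD8-only T cells. Slfn1 stood at 167 CPM in CD4-only T cells and had none in NK cells, which allows up to 3 UMIs in a count of 0. Ifi27l2a ranged from 925 CPM in CD4-only T cells to 14.4 in NK cells, whereas Ly6a was highest in NK cells, at 1857, and lowest in B cells, at 137.

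**Figure D2:**
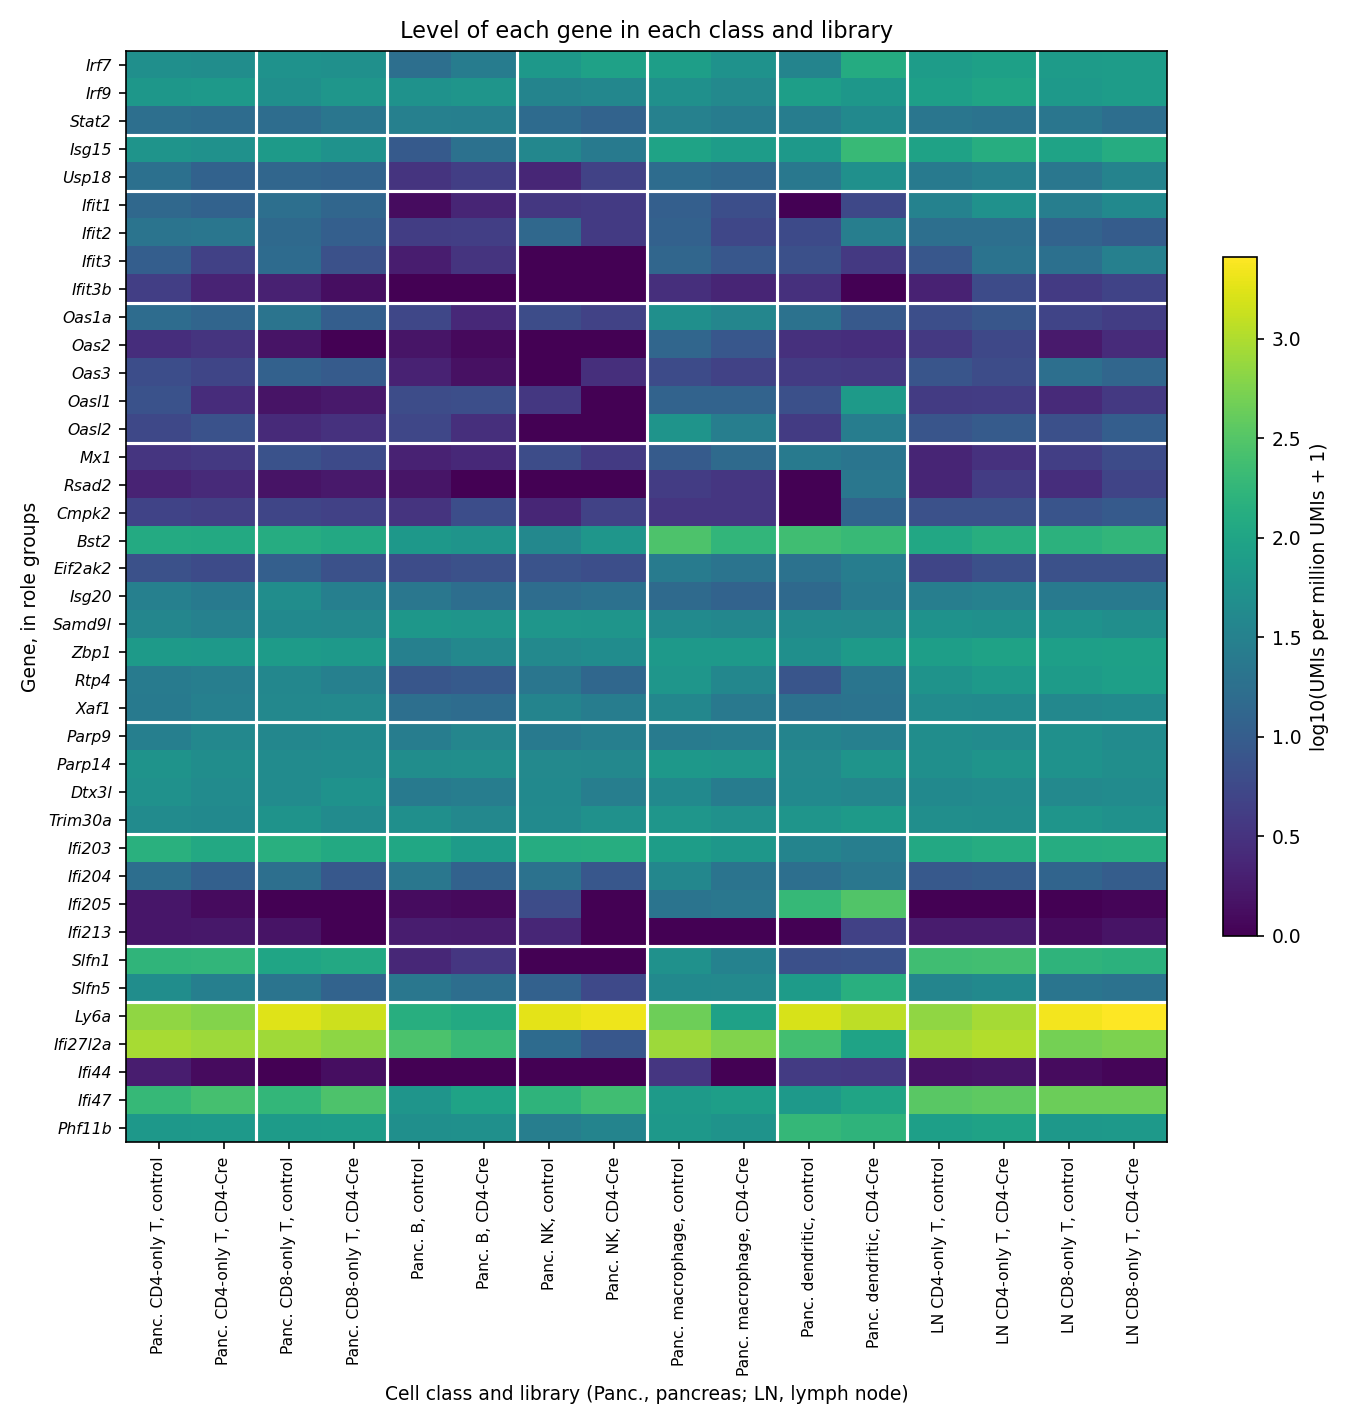
Level of each of the 39 genes (y axis, in role groups separated by white lines) in each class and library (x axis), as log10 of CPM plus 1. Ly6a and Ifi27l2a are the brightest genes in T cells, Ifi205 stands out in dendritic cells, and neighbouring control and CD4-Cre columns look far more alike than different classes do.

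In lymph node CD4-only T cells the interferon genes were higher in the CD4-Cre library. The 39 genes summed to 3375 CPM (3329 to 3421) in the control library against 3911 (3876 to 3946) in the CD4-Cre one, or a log2 ratio of 0.21 (0.19 to 0.24), and the 24 core genes to 1465 and 1719, a log2 ratio of 0.23 (0.19 to 0.27). With a minimum of 50 UMIs in the 2 libraries together, 34 genes could be counted, of which 12 were at least 1.2-fold higher and 1 at least 1.2-fold lower. Over all 9311 genes with that many UMIs, 5.25% were that much higher and 20.7% that much lower. Among the 12 higher genes, Ifit3b (7 and 61 UMIs) and Oas2 (17 and 54) reached the minimum only through the CD4-Cre library. The median log2 ratio was 0.18 for the interferon genes and -0.08 for all genes. With edgeR's TMM library sizes, which moved every ratio by 0.08, 16 genes of the list were that much higher and 1 lower, beside 808 and 1300 of all genes (489 and 1923 without them). The other 5 genes of the list, Mx1, Rsad2, Ifi205, Ifi213 and Ifi44, had fewer than 50 UMIs.

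Ifit3b, Ifit3 and Ifit1, whose proteins belong to a family that binds foreign RNA, had the highest ratios. Ifit3 had 47 UMIs (7.56 CPM) in control and 225 (18.7 CPM) in the CD4-Cre library, a log2 ratio of 1.31 (0.85 to 1.80). Its near copy Ifit3b had 7 (1.13 CPM) and 61 (5.08 CPM), a log2 ratio of 2.18 (1.05 to 3.55). Ifit1 had 196 (31.5 CPM) and 634 (52.8 CPM), a log2 ratio of 0.75 (0.51 to 0.98). Ifit1, Ifit3 and Ifit3b have paired elements in the promoters shown above, which were chosen after these ratios were seen. Bst2 and Oas1a also held 2 elements each, at log2 ratios of 0.32 and 0.35. Oas3 and Stat2, the 2 lowest in this class, held 1 each. Ifit2, with no element in its windows, was level at 16.9 and 16.6 CPM. A link between element and ratio was not tested. Isg15, the ubiquitin-like modifier (chr4:156199424-156200818), had 567 (91.1 CPM) and 1590 (132 CPM), a log2 ratio of 0.54 (0.40 to 0.68). Usp18, the protease that removes ISG15 and damps the receptor, stood at 23.95 and 29.4 CPM, a log2 ratio of 0.30 (0.02 to 0.58).

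The number of barcodes carrying UMIs differed widely between these genes. Ifit3 was found in 2.53% of control and 3.79% of CD4-Cre barcodes, with 34.0% and 18.7% of its UMIs in the top 5. Ifit3b was found in 7 and 42 barcodes, and Isg15 in 310 and 675. At a common depth of 2000 UMIs per barcode, Ifit1 was detected in 4.10% of control and 6.37% of CD4-Cre barcodes, Ifit3 in 1.29% and 2.49%, and Isg15 in 12.6% and 14.6%. Fewer cells with the transcript and less of it per cell cannot be told apart in a summed level.

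Among the OAS genes, which make the messenger that activates RNase L, Oas2 had 17 UMIs (2.73 CPM) and 54 (4.50 CPM), a log2 ratio of 0.72 (-0.09 to 1.60). Oas3 was the 1 gene below the 1.2-fold limit, with 43 (6.91 CPM) and 62 (5.17 CPM), a log2 ratio of -0.42 (-1.004 to 0.18). Both intervals include 0. The next lowest were Stat2, the partner of Irf9 in the interferon-activated factor, at 20.6 and 18.7 CPM (log2 -0.14, -0.46 to 0.18), Samd9l, an antiviral and growth-restraining gene, at 54.2 and 50.3 (-0.11, -0.30 to 0.09), and Parp9, a partner of Dtx3l in ubiquitin transfer, at 46.0 and 42.9 (-0.10, -0.31 to 0.11).

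The abundant genes were mostly higher by less. Ly6a stood at 706 and 893 CPM (log2 0.34, 0.29 to 0.39), and Ifi27l2a at 909 and 1037 (0.19, 0.14 to 0.24). Bst2 stood at 111 and 138 CPM (0.32, 0.19 to 0.45), Ifi203 at 114 and 129 (0.17, 0.04 to 0.30), and Zbp1 at 81.7 and 91.9 (0.17, 0.02 to 0.33). Ifi47, at 344 and 363 (0.08, 0.00 to 0.15), and Slfn1, at 230 and 238 (0.05, -0.04 to 0.15), were nearly level. Irf7, which amplifies interferon production, stood at 75.4 and 85.5 CPM, and Irf9 at 82.3 and 96.2. Both were higher by less than 1.2-fold, and with TMM sizes Irf9 stood at 0.31, past that limit, while Stat2 was lower, as given above.

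Lymph node CD8-only T cells showed a smaller difference of the same direction. The sum was 4611 CPM (4544 to 4679) in the control library against 5044 (4994 to 5093) in the CD4-Cre one, or a log2 ratio of 0.13 (0.10 to 0.15), and the core genes stood at 1058 and 1195, a log2 ratio of 0.18 (0.12 to 0.23). Here the median of all genes lay at -0.11. Relative to that shift, taken as TMM library sizes, the sum was 0.24 higher on the log2 scale. Of 31 genes counted, 7 were at least 1.2-fold higher and 4 at least 1.2-fold lower, beside 5.5% and 26.5% of all 8531 genes. With TMM sizes 10 were higher and 1 lower, beside 920 and 1338 of all genes (469 and 2261 without them). The median was 0.05 for the interferon genes and 0.16 with TMM sizes. The 8 genes under 50 UMIs were Ifit3b, Oas1a, Oas2, Oasl1, Rsad2, Ifi205, Ifi213 and Ifi44.

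Ifit3 and Usp18 were among the 4 highest here. Ifit3 had 68 UMIs (17.3 CPM) in control and 231 (29.2 CPM) in the CD4-Cre library, a log2 ratio of 0.76 (0.36 to 1.17). Usp18 had 85 (21.6 CPM) and 256 (32.4 CPM), a log2 ratio of 0.59 (0.23 to 0.96). Isg15 had 367 (93.2 CPM) and 1007 (128 CPM), a log2 ratio of 0.45 (0.28 to 0.63). All 3 of these intervals lie above 0. Oasl2, an OAS-like gene, had 23 (5.84 CPM) and 75 (9.497 CPM), a log2 ratio of 0.70 (0.01 to 1.44). Mx1, an antiviral GTPase, had only 13 (3.30 CPM) and 39 (4.94 CPM), a log2 ratio of 0.58 (-0.36 to 1.61).

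The lowest were Oas3, at 16.8 and 12.3 CPM (log2 -0.45, -0.91 to 0.03), Stat2, at 20.6 and 15.95 (-0.37, -0.78 to 0.05), Ifit2, at 11.2 and 8.86 (-0.33, -0.90 to 0.24), and Ifi204, at 11.4 and 9.12 (-0.33, -0.88 to 0.24). Each of these intervals includes 0, and with TMM sizes only Oas3 stayed past 1.2-fold, at -0.34, with Stat2 at -0.26. Ly6a stood at 2262 and 2576 CPM (0.19, 0.15 to 0.22), and Ifi27l2a at 499 and 543 (0.12, 0.04 to 0.20). Bst2 stood at 153 and 175 (0.20, 0.06 to 0.34), Ifi203 at 129 and 131 (0.02, -0.13 to 0.18) and Zbp1 at 82.5 and 85.7 (0.05, -0.14 to 0.25). Ifi47, at 444 and 440.5 (-0.01, -0.10 to 0.07), and Slfn1, at 167 and 155 (-0.11, -0.24 to 0.03), changed sign with TMM sizes, to 0.10 and 0.003, as did Eif2ak2 and Isg20.

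In pancreas CD4-only T cells the interferon genes were lower in the CD4-Cre library. The sum was 3041 CPM (2982 to 3101) in the control library against 2794 (2757 to 2831) in the CD4-Cre one, or a log2 ratio of -0.12 (-0.16 to -0.09). The core genes stood at 1340 and 1204, a log2 ratio of -0.15 (-0.21 to -0.10). Of 30 genes counted, 4 were at least 1.2-fold higher and 11 at least 1.2-fold lower, while over all 8917 genes the shares were 15.7% and 14.3%. The median log2 ratio was -0.16 for the interferon genes and 0.03 for all genes. The 9 genes under 50 UMIs were Ifit3b, Oas2, Oasl1, Mx1, Rsad2, Cmpk2, Ifi205, Ifi213 and Ifi44.

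Ifit3 was the lowest here, with 32 UMIs (9.54 CPM) in control and 27 (3.51 CPM) in the CD4-Cre library, a log2 ratio of -1.44 (-2.24 to -0.66). Its counts were few and lay in 15 and 16 barcodes, with 31.25% and 40.7% of them in a single barcode of each library. Slfn5, a Schlafen gene with antiviral roles, had 153 (45.6 CPM) and 220 (28.6 CPM), a log2 ratio of -0.67 (-0.98 to -0.37). Usp18 had 58 (17.3 CPM) and 84 (10.9 CPM), a log2 ratio of -0.66 (-1.16 to -0.15), and Ifi204 54 (16.1 CPM) and 79 (10.3 CPM), a log2 ratio of -0.65 (-1.17 to -0.12). All 4 of these intervals lie below 0.

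The highest were Oasl2, with 15 UMIs (4.47 CPM) and 48 (6.24 CPM), a log2 ratio of 0.48 (-0.38 to 1.42), and Parp9, with 28.3 and 38.2 CPM (0.43, 0.09 to 0.78). Ifi47 followed with 634 UMIs (189 CPM) and 1943 (253 CPM), a log2 ratio of 0.42 (0.29 to 0.55), and then Xaf1, a gene that promotes cell death, with 23.9 and 29.9 CPM (0.33, -0.05 to 0.71). Ifi47 thus went opposite to the sum. It was detected in 27.2% of control and 37.1% of CD4-Cre barcodes at 2000 UMIs. Ly6a stood at 704 and 592 CPM (-0.25, -0.32 to -0.18), Ifi27l2a at 925 and 820 (-0.17, -0.24 to -0.11), and Ifi203 at 146 and 114 (-0.36, -0.52 to -0.20). Isg15, at 57.5 and 52.5 CPM (-0.13, -0.38 to 0.12), Bst2, at 120 and 116 (-0.05, -0.22 to 0.12), Zbp1, at 72.2 and 68.3 (-0.08, -0.30 to 0.15), and Slfn1, at 167 and 176 (0.07, -0.07 to 0.21), had intervals that include 0.

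In pancreas CD8-only T cells the interferon genes were also lower in the CD4-Cre library. The core genes summed to 1311 CPM in the control and 1071 in the CD4-Cre library, a log2 ratio of -0.29 (-0.37 to -0.21). All 39 genes summed to 3960 (3872 to 4050) and 3471 (3403 to 3540), a log2 ratio of -0.19 (-0.23 to -0.15). Of 26 genes counted, 4 were at least 1.2-fold higher and 11 at least 1.2-fold lower, beside 16.2% and 21.4% of all 7341 genes. The median was -0.16 for the interferon genes and -0.03 for all. The 13 genes under 50 UMIs included Ifit3, with 28 UMIs in control and 17 in CD4-Cre, and the others were Ifit3b, Oas2, Oas3, Oasl1, Oasl2, Mx1, Rsad2, Cmpk2, Eif2ak2, Ifi205, Ifi213 and Ifi44.

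Ifi204 had 32 UMIs (16.6 CPM) and 22 (7.70 CPM), a log2 ratio of -1.11 (-1.96 to -0.28). Oas1a had 38 (19.7 CPM) and 27 (9.45 CPM), a log2 ratio of -1.06 (-1.83 to -0.31), with the caution on its copies given above. Slfn5 had 37 (19.2 CPM) and 32 (11.2 CPM), a log2 ratio of -0.78 (-1.51 to -0.06). Isg20, an exonuclease that degrades viral RNA, had 89 (46.3 CPM) and 81 (28.4 CPM), a log2 ratio of -0.71 (-1.16 to -0.26). Isg15 stood at 71.2 and 54.6 CPM (-0.38, -0.72 to -0.04), below 0 with its whole interval.

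Ifi47 was again the exception. It had 348 UMIs (181 CPM) in control and 809 (283 CPM) in the CD4-Cre library, a log2 ratio of 0.65 (0.46 to 0.83), and was detected in 27.1% and 47.6% of barcodes at 2000 UMIs. Stat2, at 15.6 and 21.0 CPM (0.43, -0.23 to 1.11), Dtx3l, at 43.1 and 53.6 (0.31, -0.08 to 0.72), and Irf9, at 49.4 and 60.6 (0.29, -0.07 to 0.67), were the other 3 past 1.2-fold, with intervals that include 0. Ly6a stood at 1742 and 1422 CPM (-0.29, -0.36 to -0.23), and Ifi27l2a at 847 and 674 (-0.33, -0.43 to -0.23). Bst2, at 128 and 115 (-0.16, -0.40 to 0.08), Ifi203, at 139 and 119 (-0.23, -0.46 to 0.01), Zbp1, at 72.8 and 69.3 (-0.07, -0.39 to 0.25), and Slfn1, at 99.3 and 113 (0.19, -0.07 to 0.45), had intervals that include 0.

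Set side by side, the genotype ratio of the sum was 0.34 higher (0.29 to 0.38) on the log2 scale in the lymph node than in the pancreas for CD4-only T cells. For CD8-only T cells it was 0.32 higher (0.27 to 0.37). For the core genes the differences were 0.38 (0.32 to 0.45) and 0.47 (0.37 to 0.56). Tissue, age, cell selection and library differ together here and cannot be told apart. Gene by gene, 30 genes could be counted in CD4-only T cells of both tissues. Of these, 17 (56.7%) had a ratio below 0 in the pancreas and above 0 in the lymph node, a pattern held by 13.8% of all 8745 genes. A further 6 were above 0 in both, 4 were below 0 in both, and 3 (Ifit2, Xaf1 and Parp9) were above 0 in the pancreas only. In CD8-only T cells the crossed pattern was held by 10 of 25 genes (40%) and by 15.9% of all 7122 genes. The shares of all genes depend on the scaling, since only 32.6% of all genes counted in lymph node CD4-only T cells lay above 0. With TMM sizes, added after seeing the data, the pattern was held by 18 of 30 genes (60%) and 23.1% of all genes in CD4-only T cells, and by 11 of 25 (44%) and 24.2% in CD8-only T cells.

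Ifit3 was the most extreme case in CD4-only T cells, with -1.44 in the pancreas and 1.31 in the lymph node. Usp18 stood at -0.66 and 0.30. Ifit1 stood at -0.31 (-0.85 to 0.24) and 0.75, and Oas1a at -0.33 (-0.85 to 0.19) and 0.35 (-0.23 to 0.96), so their pancreas intervals include 0. At 2000 UMIs per barcode, Ifit1 was detected in 1.33% of control and 1.92% of CD4-Cre pancreas CD4-only barcodes, and Isg15 in 7.39% and 8.09%, a direction opposite to that of their summed levels. In CD8-only T cells Ifit1 stood at -0.44 (-1.17 to 0.30) and 0.52 and Isg15 at -0.38 and 0.45. Ifi47 was the reverse, higher in the pancreas CD4-Cre library of both T cell classes and nearly level in the lymph node.

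**Figure D3:**
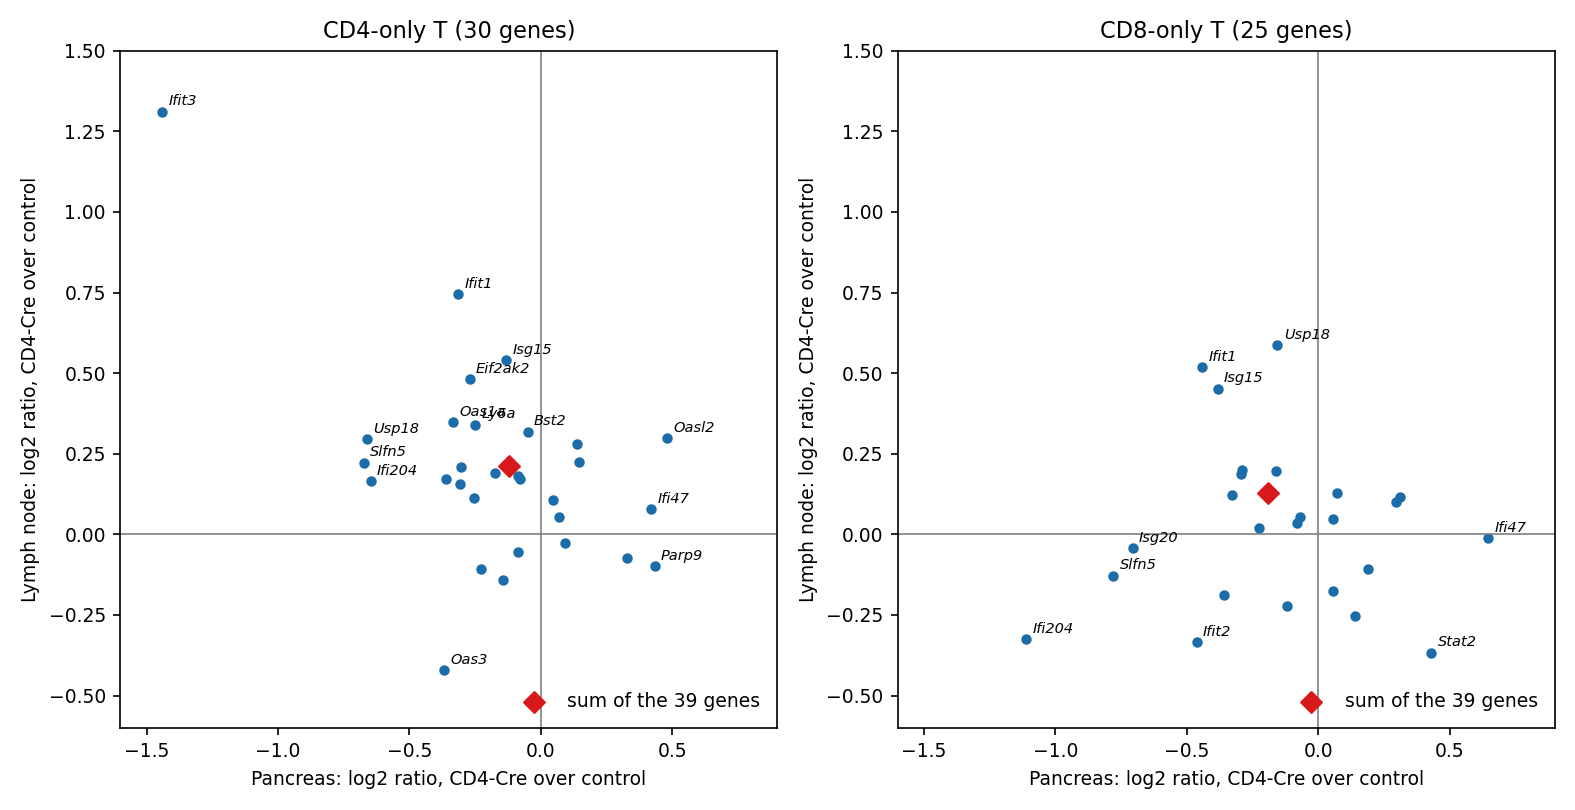
Genotype log2 ratio, CD4-Cre over control, of each gene in the pancreas (x axis) and in the lymph node (y axis), for the 30 genes counted in CD4-only T cells of both tissues (left) and the 25 in CD8-only T cells (right), with the sum of the 39 genes as a red diamond. The upper left field holds 17 of the 30 and 10 of the 25, with Ifit3 at its corner on the left, and Ifi47 lies far to the right of both panels near a lymph node ratio of 0.

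High barcodes, meaning those with UMIs of at least 3 different core genes after thinning to 2000 UMIs, were present in every class. In lymph node CD4-only T cells 17.8% of control (221 of 1244) and 20.7% of CD4-Cre barcodes (540 of 2607) were high, a difference of 2.95 percentage points (0.26 to 5.53). This difference was smaller, with an interval that includes 0, at 1000 UMIs (0.82, -1.05 to 2.56), without thinning (1.40, -1.93 to 4.71), with at least 5 core genes (1.23, -0.27 to 2.58) and without doublet removal (2.32, -0.40 to 4.92). In CD8-only T cells of the lymph node the shares were 15.6% (107 of 685) and 18.4% (256 of 1391), a difference of 2.78 points (-0.72 to 6.08). In the pancreas they were 13.2% (109 of 825) and 10.6% (199 of 1878) for CD4-only T cells, a difference of -2.62 points (-5.42 to -0.017), and 14.5% (56 of 387) and 11.5% (68 of 593) for CD8-only T cells, a difference of -3.00 points (-7.50 to 1.23). The directions follow those of the sums, but the CD8-only intervals include 0, and the pancreas CD4-only interval ends just below it. Barcodes under 2000 UMIs were left out, between 7 and 141 per T cell class and library, and without thinning the shares were 43.2% and 44.6%, 45.8% and 48.8%, 29.4% and 25.4%, and 34.0% and 31.3% in the same order.

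These barcodes are a range of a score and not a cell type. Those with exactly 3 core genes, next to the limit, made up 9.73% of control and 10.4% of CD4-Cre lymph node CD4-only T barcodes, and 22.7% and 24.2% had exactly 2. In other classes, pancreas B cells, with medians of 3540 and 3364.5 UMIs, had 2.60% and 2.74% high barcodes (8.09% and 8.74% without thinning). Pancreas NK cells, with medians of 3696 and 3830.5, had 2.15% and 2.07%. These classes differ from T cells in their own expression of core genes, so their shares do not measure stray RNA. Without thinning, Ifi27l2a was found in 75.1% of CD4-only T, 43.8% of B and 3.52% of NK barcodes of the pancreas control. At the upper end, 6 or more core genes were seen in 1.61% of control and 3.81% of CD4-Cre lymph node CD8-only T barcodes, and in 2.65% and 3.18% of the CD4-only ones. In the pancreas the same shares were 1.55% and 0.506% for CD8-only and 0.606% and 0.905% for CD4-only T cells.

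**Figure D4:**
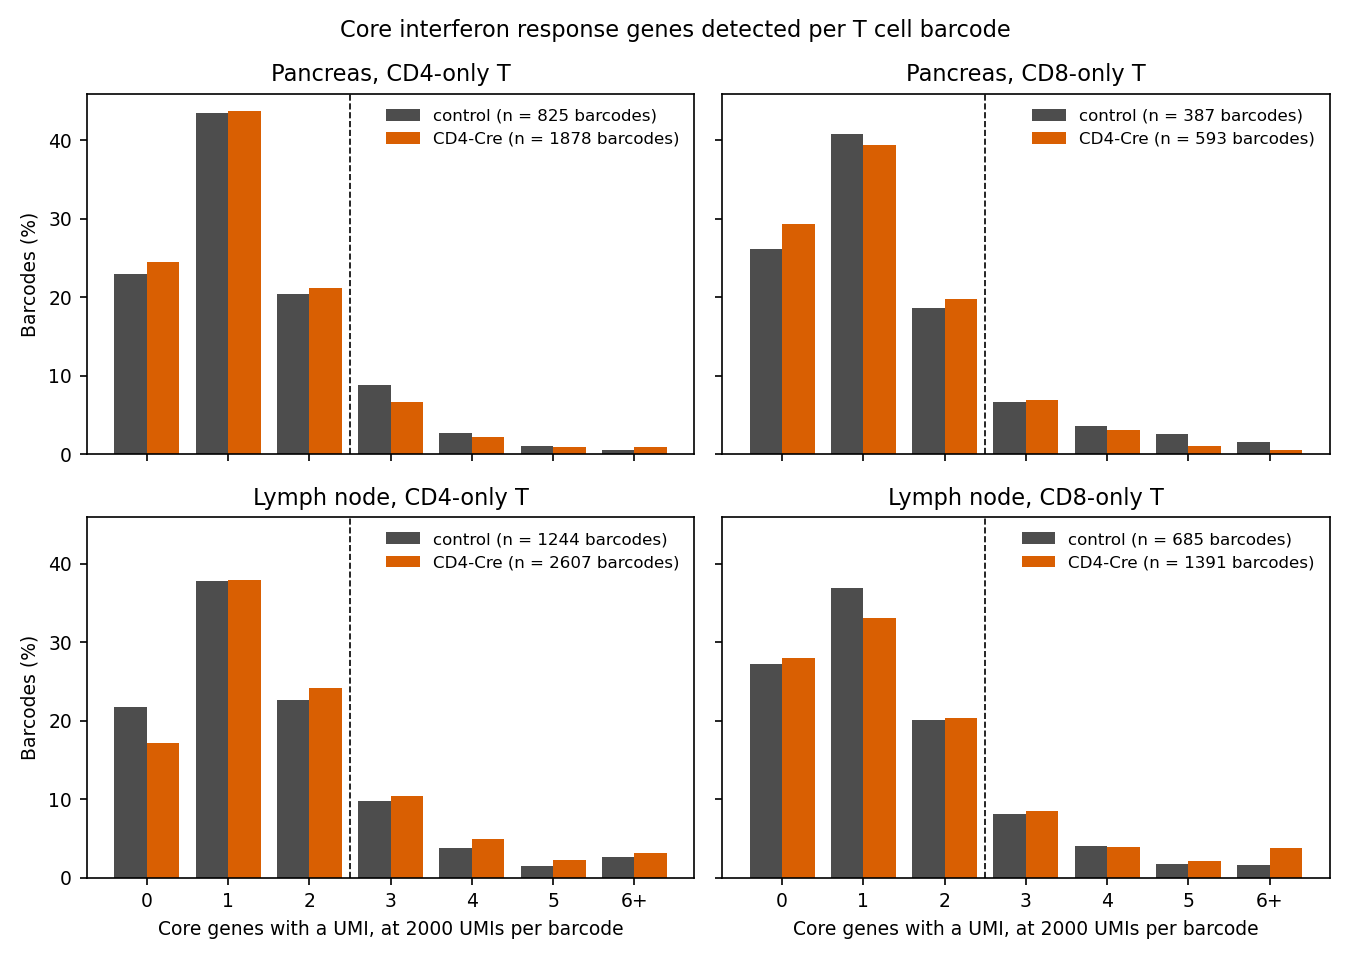
Percentage of barcodes (y axis) by the number of the 24 core genes with a UMI after thinning to 2000 UMIs (x axis, 6+ meaning 6 or more), for control (grey) and CD4-Cre (orange) T cell classes. The dashed line marks the limit of 3 genes; to its right the orange bars sum to 20.7% against 17.8% for lymph node CD4-only T cells, and to 10.6% against 13.2% for those of the pancreas.

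Within T cell subsets gated by markers the differences were not uniform. Naive-marker CD4-only barcodes (2 or more UMIs of naive T cell markers, no Foxp3 and fewer than 2 UMIs of the effector markers S100a4, Ccl5, Nkg7, Itgb1, Cxcr3 and Cxcr6) of the lymph node stood at a log2 ratio of 0.26 (0.23 to 0.29) for the sum and 0.26 (0.21 to 0.30) for the core genes. In the pancreas they stood at -0.10 (-0.15 to -0.05) and -0.25 (-0.33 to -0.17). Effector-marker CD4-only barcodes of the pancreas were level, at 0.006 (-0.05 to 0.07) for the sum and 0.03 (-0.05 to 0.11) for the core genes. Those of the lymph node, 65 and 110 barcodes, stood at -0.03 (-0.11 to 0.05) for the sum and 0.19 (0.08 to 0.31) for the core genes.

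Ly6a separated from the other genes in these subsets. In effector-marker CD4-only barcodes of the lymph node it stood at 1340 and 724 CPM (log2 -0.89, -1.07 to -0.71), against 671 and 956 (0.51, 0.45 to 0.57) in the naive-marker ones. In the pancreas Ly6a was level in naive-marker CD4-only barcodes, at 544 and 563 CPM (0.05, -0.05 to 0.15). There it stood at 727 and 623 CPM (-0.22, -0.36 to -0.09) in the effector-marker ones. In Foxp3-bearing CD4-only barcodes of the pancreas, 60 and 129 in number, it stood at 1778 and 833 CPM (-1.09, -1.27 to -0.92), and their sum of 39 genes at 5191 and 3947 (-0.40, -0.48 to -0.31). In those of the lymph node the sum was level, at 4258 and 4376 (0.04, -0.04 to 0.11).

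CD8-only T cells were compared in the same way. Effector-marker barcodes were 83.4% and 83.2% of CD8-only barcodes in the lymph node, so the gate is wide there and the name is that of its markers only. They stood at 0.12 (0.10 to 0.15) for the sum, and naive-marker barcodes at 0.14 (0.06 to 0.22). In the pancreas effector-marker barcodes stood at -0.16 (-0.20 to -0.11). Naive-marker barcodes made up 7.14% of control and 15.8% of CD4-Cre CD8-only barcodes there, and the summed effector markers 19516 and 12199 CPM. The part of this shift in the CD8-only difference was not tested beyond the value within the effector-marker barcodes.

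**Figure D5:**
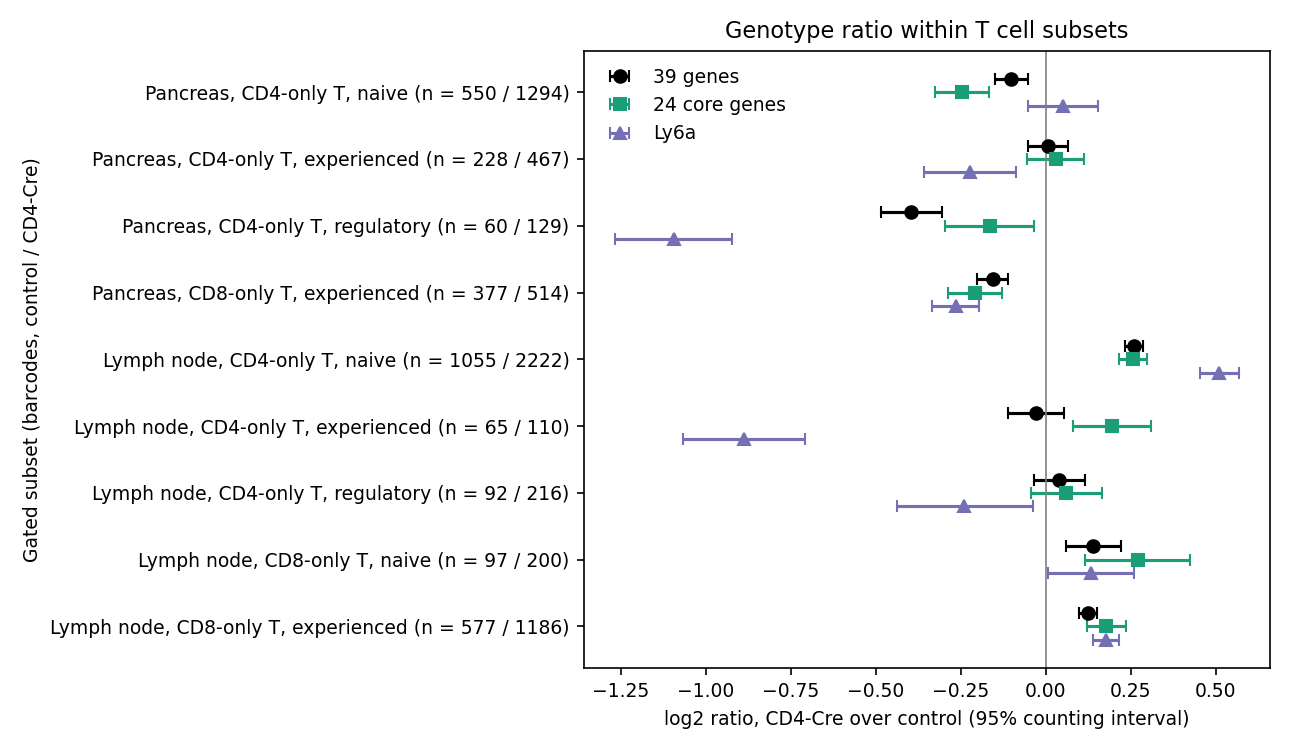
Log2 ratio, CD4-Cre over control (x axis), of the 39 genes, the 24 core genes and Ly6a in each gated T cell subset with at least 50 barcodes in both libraries (y axis), with 95% counting intervals. The lymph node naive-marker CD4-only subset lies furthest to the right, and Ly6a lies far to the left in the pancreas Foxp3-bearing and the lymph node effector-marker CD4-only subsets.

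Of the other pancreas classes, macrophages (182 and 163 barcodes) were the furthest apart in the sum of the 39 genes. It was 2824 CPM (2743 to 2907) in the control library against 1855 (1790 to 1923) in the CD4-Cre one, or a log2 ratio of -0.61 (-0.67 to -0.54), and the core genes stood at 1485 and 1075, a log2 ratio of -0.47 (-0.56 to -0.38). Of 25 genes counted, none was at least 1.2-fold higher and 15 at least 1.2-fold lower, beside 18.9% and 21.8% of all 6135 genes. The 2 highest counted were Ifi47, at 70.5 and 81.5 CPM (0.21, -0.16 to 0.58), and Ifi205, at 19.8 and 21.5 (0.12, -0.62 to 0.85). The 2 lowest were Ly6a, at 451 and 87.6 (-2.36, -2.63 to -2.10), and Oasl2, at 57.5 and 27.6 (-1.06, -1.61 to -0.53).

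Macrophage markers moved with this result. C1qa, C1qb, C1qc, Adgre1 and Csf1r, all 5 detected, summed to 10711 CPM in control and 7244 in CD4-Cre, with medians of 53 and 31 marker UMIs per barcode. Their part in the difference was not tested. Ly6a in particular came from 24 and 10 barcodes, of which the top 5 held 73.0% and 89.5% of its UMIs, and without Ly6a the log2 ratio of the sum was -0.42.

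Dendritic cells (69 and 82 barcodes) were close in the sum, at 3257 and 3333 CPM (log2 0.03, -0.03 to 0.10), though without Ly6a the sum stood at 0.36 (0.27 to 0.45), while the core genes stood at 904 and 1280 (0.50, 0.38 to 0.62). A single CD4-Cre barcode held 377 core UMIs, 26.2% of the core UMIs of its class, among them 106 of 225 Isg15 and 60 of 81 Oasl1 UMIs. Without the barcode with the most core UMIs in each library, a setting chosen after seeing the data, the core genes stood at 0.18 (0.05 to 0.31) and the sum at -0.12 (-0.19 to -0.04). Of 20 genes counted over all barcodes, 11 were at least 1.2-fold higher and 4 lower, beside 20.6% and 23.5% of all 4711 genes. Without those barcodes the counts were 9 and 5 of 19, and the shares of all genes at that setting are not given.

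The 2 highest in dendritic cells were Oasl1, at 5.85 and 72.1 CPM (3.62, 2.44 to 5.11), and Irf7, at 34.1 and 124 (1.86, 1.32 to 2.44), of which the same barcode held 52 of 139 UMIs. The 2 lowest were Ifi27l2a, at 238 and 95.3 (-1.32, -1.66 to -0.99), and Ly6a, at 1589 and 1194 (-0.41, -0.52 to -0.31). Few barcodes carried most of both. The top 5 held 57.0% and 46.7% of the Ifi27l2a UMIs and 62.8% and 51.7% of the Ly6a UMIs in control and CD4-Cre. Ifi27l2a was found in 37.7% and 36.6% of barcodes, and Ly6a in 39.1% and 35.4%. Rsad2, which encodes viperin, had no UMI in control and 24 in CD4-Cre, 23 of them in the CD4-Cre barcode with the most core UMIs.

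B cells had the lowest sums, at 1164 and 1075 CPM (log2 -0.12, -0.17 to -0.06). The core genes stood at -0.20 (-0.30 to -0.10), and at 0.14 (-0.01 to 0.29) without Ifi27l2a. Of 21 genes counted, 5 were at least 1.2-fold higher and 6 lower, beside 20.1% and 10.6% of all 8493 genes. With TMM sizes the counts were 5 and 7, beside 1192 and 1253 of all genes (1707 and 897 without them). The 2 highest were Isg15, with 29 and 85 UMIs, 8.30 and 17.5 CPM (1.07, 0.45 to 1.73), and Ifi47, at 58.4 and 94.4 (0.69, 0.45 to 0.94). The 2 lowest were Ifi204, at 21.5 and 10.7 (-1.01, -1.55 to -0.48), and Ifi203, at 107 and 73.2 (-0.55, -0.76 to -0.34).

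In NK cells (199 and 262 barcodes) the sum was higher in CD4-Cre, at 2770 and 3093 CPM (log2 0.16, 0.08 to 0.24), of which Ly6a alone made 1857 and 2117. The core genes stood at 292 and 266 (-0.14, -0.39 to 0.12). Of 15 genes counted, 5 were at least 1.2-fold higher and 3 lower, beside 22.1% and 17.3% of all 4915 genes. The 2 highest were Bst2, at 37.9 and 60.9 CPM (0.69, 0.04 to 1.37), and Ifi47, at 166 and 233 (0.49, 0.18 to 0.81). The 2 lowest were Isg15, at 36.6 and 23.99 (-0.61, -1.44 to 0.22), and Dtx3l, at 40.5 and 27.7 (-0.55, -1.32 to 0.22). Ifi47 was thus above a log2 ratio of 0 in all 6 pancreas classes.

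The genes upstream of the response were examined from lists of the same pathway. Transcripts of the interferons themselves were nearly absent: the 18 type I genes listed gave 0 UMIs in 3 of the libraries and 4 UMIs in the CD4-Cre library of the lymph node, out of 14180641 to 29253564 UMIs per library. A count of 0 allows up to 3. The libraries held leukocytes sorted for CD45 in the pancreas and T cells selected for CD3 in the lymph node. Other cells of these tissues were largely not sampled. The receptor genes Ifnar1 and Ifnar2 were lower by less than 1.2-fold in all 4 T cell classes, for example at 57.8 and 53.4, and at 84.4 and 76.7 CPM, in pancreas CD4-only T cells, with intervals that include 0.

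Counts over the lists were as follows, to be read against the shares of all genes at least 1.2-fold higher and lower, which were 15.7% and 14.3% in pancreas CD4-only, 16.2% and 21.4% in pancreas CD8-only, 5.25% and 20.7% in lymph node CD4-only and 5.5% and 26.5% in lymph node CD8-only T cells. Of 7 receptor and kinase genes, 1 was at least 1.2-fold higher and 1 lower in pancreas CD4-only T cells, 2 and 0 in CD8-only, and 0 and 1, and 0 and 2, in the lymph node. Of the sensors and adaptors none of 9 counted was past 1.2-fold in pancreas CD4-only T cells, 2 of 6 were higher and none lower in CD8-only, and 0 were higher and 1 lower of 9 in each lymph node class. Of the genes that brake the response, such as Socs1, 1 of 9 was higher and 1 lower in both pancreas T cell classes, and 0 and 0, and 0 and 2, of 9 in the lymph node.

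Guanylate-binding proteins and other genes best known as interferon-gamma targets were counted against the same shares. In pancreas CD8-only T cells 7 of 13 counted were at least 1.2-fold higher and 1 lower, and the sum stood at 575 and 733 CPM (log2 0.35). Gbp2 stood at 49.9 and 104 CPM there (1.06, 0.72 to 1.41) and Igtp at 85.8 and 124 (0.53, 0.26 to 0.80), while the chemokine gene Cxcl10, the 1 that was lower, stood at 21.8 and 8.05 (-1.44, -2.24 to -0.67). In pancreas CD4-only T cells 3 of 14 were higher and 3 lower, in lymph node CD4-only 1 and 2 of 14, and in lymph node CD8-only 0 and 2 of 13. Interferon-gamma itself, Ifng, was at 103 and 69.0 CPM in pancreas CD8-only T cells (-0.58, -0.87 to -0.29) and at 42.3 and 22.4 in CD4-only T cells (-0.92, -1.25 to -0.59). Cxcl10 followed Ifit3 in direction in CD4-only T cells, with 43 and 35 UMIs (12.8 and 4.55 CPM) in the pancreas and 8 and 56 (1.29 and 4.67 CPM) in the lymph node.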

How the data were processed

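Droplet-based 5′ single-cell RNA sequencing was measured in 4 libraries. The authors deposited raw UMI counts for each gene in each barcode; the file headers name software version 3.0.0, and Cell Ranger and build mm10 are named in the submitters' processing notes. The annotation and aligner settings are not given in the sources used here. Barcodes with at least 500 genes and at most 10% mitochondrial UMIs were kept, and the highest doublet scores, from 2 simulated doublets per barcode, were removed at 0.8% per 1000 barcodes listed (75 to 388 per library). Classes were gated on marker UMIs: at least 2 for T, NK and dendritic and 3 for B and macrophage classes, with at most 1 UMI of most other classes, so class names are rebuilt from expression. Classes under 50 barcodes were not compared, which leaves T cells only in the CD3-selected lymph node.

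UMIs were summed per class and divided by the class total. Levels have exact Poisson intervals, log2 ratios exact conditional binomial (Clopper-Pearson) intervals, shares exact binomial and share differences Newcombe intervals, all at 95% and for counting error only. No test was made and no p-value is given. A gene was counted with at least 50 UMIs over both libraries and called past the limit at 1.2-fold. A gene low in 1 library can thus enter through the other, and its place in a count or ranking is then no independent support. Named genes were the 8 with the most UMIs in T cells, the 4 highest and 4 lowest ratios in each T cell class and 2 and 2 in other classes; others named stand in counts or were chosen after their values were seen. The members, lists and core genes were chosen with earlier results of these data known. The code for ratios and thinning was tested on simulated data. Those counts were drawn independently, as the intervals assume, so the check does not cover the clustering of UMIs in few barcodes. Alternatives used edgeR 4.0.16, DESeq2 1.42.0, scanpy 1.11.5 clusters, other filters, gates, totals and limits. Promoter sequences came from RefSeq (GRCm38.p6) and positions and transcripts from GENCODE M21 (GRCm38). Some genes of the marker and pathway lists are not reported here.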

Additional observations from a re-analysis of the deposited data

Results flagged for a closer look

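The genotype ratio of the interferon genes had opposite directions in the 2 tissues in both T cell classes, which is why these values stand out. In CD4-only T cells the lymph node log2 ratio (CD4-Cre divided by control) minus the pancreas one was 0.34 for the 39 genes and 0.38 for the core genes. In CD8-only T cells the same differences were 0.32 and 0.47. With 1 library per group these differences were not tested, and tissue, age, cell selection and library cannot be told apart.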

How the results depend on the processing

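Each group was a single library, so no replicate could be left out, and depth limits the low genes most. No paired analysis was possible because each group holds 1 library. The sum of the 39 genes kept its direction under all 16 alternatives in both CD8-only classes, and under 15 of 16 in both CD4-only classes. The exception was the effector-marker subset, at 0.0065 in the pancreas and -0.029 in the lymph node. Values that moved beyond their counting interval follow, and the cause was not tested. Without Ly6a the log2 ratios were -0.086 and -0.12 in pancreas CD4-only and CD8-only T cells and 0.18 and 0.071 in those of the lymph node. Core genes alone gave -0.29 in pancreas and 0.18 in lymph node CD8-only T cells. Core genes without Ifi27l2a, a setting chosen after seeing the data, gave 0.30 and 0.22 in lymph node CD4-only and CD8-only T cells. They gave 0.14 in B cells and -0.11 in NK cells, each opposite in direction to the sum of the 39 genes. In NK cells the core genes with Ifi27l2a already stood at -0.14. The median of the genes was -0.16 in pancreas CD4-only, 0.18 in lymph node CD4-only and 0.046 in lymph node CD8-only T cells, and equal weight for each barcode gave -0.084 in pancreas CD4-only T cells. In the lymph node, TMM sizes gave 0.29 and 0.24 for CD4-only and CD8-only T cells, DESeq2 size factors 0.29 and 0.24, and totals without mitochondrial, ribosomal and receptor genes 0.26 and 0.19 (-0.14 in pancreas CD8-only). Lymph node CD4-only T cells gave 0.26 in the naive-marker subset and 0.27 with gate minimums raised by 1 UMI. The pancreas CD8-only naive-marker subset had 30 and 99 barcodes. The sum in NK cells changed to -0.14 with core genes alone, and that in dendritic cells to -0.12 without the barcode with the most core UMIs in each library, a setting chosen after seeing the data. The intervals of the differences in high barcodes included 0 under several settings. Their direction was kept except in pancreas CD4-only T cells at 5 or more core genes, at 0.11 points.

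At 1.5-fold, genes higher and lower numbered 0 and 4 in pancreas CD4-only, 1 and 4 in pancreas CD8-only, 4 and 0 in lymph node CD4-only, and 3 and 0 in lymph node CD8-only T cells. The shares of all genes higher and lower at that limit were 2.60% and 3.27%, 3.91% and 5.63%, 1.18% and 4.33%, and 0.949% and 5.26%. With at least 100 UMIs, 6 were lower in pancreas CD8-only and 4 higher in lymph node CD8-only T cells, and TMM sizes left 1 lower in the latter. Shares of all genes at 100 UMIs are not given, so those counts show only how the calls depend on the minimum. A pseudocount of 10 CPM drew Ifit3 to -0.53 in the pancreas and 0.71 in the lymph node, and Ifit3b to 0.44, in CD4-only T cells.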
